A study of Homo sapiens with 4 samples.

Results

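C2CD4A, its relatives C2CD4B and C2CD4C, and 7 genes of the NF-kB pathway were followed in G401 cells with and without BRD9 knockout. C2CD4A was chosen because it rose in these libraries after BRD9 knockout. It is known as a gene induced by inflammatory signals, so the NF-kB subunits NFKB1, NFKB2, RELA and RELB and the inhibitors NFKBIA, NFKBIE and TNFAIP3 were set beside it. The rise of C2CD4A is therefore a description here, and no test is given for it. The other genes were chosen by family or pathway name, with earlier results of these data known. Each of the 10 symbols matched 1 of the 57820 gene models in the files. Of the 10 members, 9 passed the filter on low counts, which kept 15288 genes in all, and C2CD4B had no counts.

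G401 is an established line derived from a kidney rhabdoid tumour, a cancer driven by loss of SMARCB1. RNA-seq was available for 4 libraries: 2 of cells with a CRISPR-Cas9 knockout of BRD9 (BRD9 KO) and 2 labelled LacZ control. All 4 came from cells grown in DMEM with 10% FBS, and no inflammatory stimulus is named in the sources used here. By the methods, guides were delivered by lentivirus into cells that stably express Cas9, with puromycin selection, and the study obtained no G401 clones deficient in BRD9. The day of harvest is not given there. BRD9 is a bromodomain protein found in a SWI/SNF chromatin remodelling complex without SMARCB1. The comparison asks how transcript levels differ after BRD9 knockout.

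NF-kB is a family of dimeric transcription factors that lie inactive in the cytoplasm, bound by IkB proteins. In the canonical pathway a receptor such as that for TNF activates the IKK kinases, the IkB protein is destroyed and dimers such as RELA with p50, the product of NFKB1, enter the nucleus. In the noncanonical pathway the kinase NIK, encoded by MAP3K14, leads to processing of the NFKB2 product to p52, which pairs with RELB. NFKBIA, NFKBIE, TNFAIP3, NFKB2 and RELB are themselves NF-kB targets, so that the pathway feeds back on itself. C2CD4A and C2CD4B encode nuclear proteins described in endothelial cells treated with inflammatory cytokines and studied in the pancreatic islet.

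The stretch of DNA around the start of C2CD4A is shown because this gene carries the largest difference among the members, and that of its neighbour C2CD4B because it had no counts. Both windows run from 250 bases before the gene start to 50 after it, 5′ to 3′ on the strand of the gene, from RefSeq on GRCh38.p14. They lie at chr15:62066727-62067026 on the plus strand for C2CD4A and chr15:62165236-62165535 on the minus strand for C2CD4B. Capitals mark a match to TATAAA, searched on both strands along with TGANTCA, the AP-1 motif, and the kB consensus bound by NF-kB. The kB consensus was GGGRNNYYCC, with R for A or G, Y for C or T and N for any base, and only exact matches were taken.
C2CD4A: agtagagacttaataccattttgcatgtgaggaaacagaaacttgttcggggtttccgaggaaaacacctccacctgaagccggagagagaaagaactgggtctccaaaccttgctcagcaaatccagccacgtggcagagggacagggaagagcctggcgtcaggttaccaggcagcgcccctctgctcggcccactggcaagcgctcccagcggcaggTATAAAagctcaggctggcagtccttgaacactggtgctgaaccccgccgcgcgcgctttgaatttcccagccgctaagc
C2CD4B: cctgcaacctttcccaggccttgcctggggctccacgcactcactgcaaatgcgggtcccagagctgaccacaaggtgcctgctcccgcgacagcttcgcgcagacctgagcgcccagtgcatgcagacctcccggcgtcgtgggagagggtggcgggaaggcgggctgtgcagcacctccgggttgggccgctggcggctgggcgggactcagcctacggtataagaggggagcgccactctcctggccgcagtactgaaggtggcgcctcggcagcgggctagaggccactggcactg
The C2CD4A window held 1 match to TATAAA, which began 30 bases before the gene start. The C2CD4B window held no exact match, but at a similar place it held tataag, which differs from TATAAA in its last base. Neither window held an exact match to the kB consensus or to TGANTCA. The C2CD4A window held cggggtttcc, which differs from the kB consensus in its first base. It also held tgaatttccc, which differs in its first base from the consensus read on the other strand, GGRRNNYCCC. Near matches of this kind were not counted in any window. Among all 35116 promoter windows of the table, 11.5% held TATAAA, 11.3% the kB consensus and 7.71% TGANTCA.

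Matches to the kB consensus stood in the windows of NFKB1, NFKB2, NFKBIA and TNFAIP3. The windows of C2CD4C and RELA held none, and no window of a member held TGANTCA. That of NFKBIA also held TATAAA, on the other strand. RELB and NFKBIE were not searched. For comparison with the C2CD4 windows, 5 of these matches are shown, each with 10 bases on either side, on the strand of the gene and with the match in capitals.
NFKB1, chr4:102501300-102501329 (plus strand): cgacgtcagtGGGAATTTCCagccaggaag
NFKB2, chr10:102394461-102394490 (plus strand): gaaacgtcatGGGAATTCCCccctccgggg
NFKB2, chr10:102395674-102395703 (plus strand): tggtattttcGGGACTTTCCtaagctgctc
NFKBIA, chr14:35404811-35404840 (minus strand): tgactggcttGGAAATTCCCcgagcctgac
TNFAIP3, chr6:137867182-137867211 (plus strand): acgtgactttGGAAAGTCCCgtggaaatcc
NFKB2 held such matches in 2 of its 3 annotated windows, and in 1 window 2 of the matches overlapped by all but 1 base. Counted by gene, 13.3% of the 27305 genes with a window held the kB consensus. A match describes these letters alone and was not tied to binding in G401.

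The 4 libraries held between 15053247 and 19559290 estimated counts. A count of 3, taken as the limit that a count of 0 allows, came to between 0.153 and 0.199 counts-per-million (CPM), for counting error only. BRD9 itself was at 29.4 and 26.8 CPM in the BRD9 KO libraries and at 48.2 and 53.8 CPM in the LacZ control libraries, with a log2 fold change of -0.86 and an SE of 0.065 (edgeR adjusted p = 2.84e-09). Part of its exons overlap those of ZDHHC11. The transcript level does not give the protein level, and these libraries do not show how many cells kept BRD9. Mitochondrial genes took between 8.15% and 8.48% of counts. SMARCB1, the gene lost in this tumour type, had 0 counts in each library. The other markers chosen for the line moved in both directions: the log2 fold change was -0.50 for VIM and -1.56 for LIN28B, and 0.42 for KRT8 and 0.37 for KRT18, with edgeR adjusted p of at most 3.77e-10.

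Across all genes, 3127 of 15288 (20.5%) rose and 2774 (18.1%) fell in BRD9 KO against LacZ control, 38.6% in all, by the quasi-likelihood test of edgeR at an adjusted p under 0.05. The paper's methods call the replicates of each sample biological, but neither they nor the labels say that replicates came from separate cultures. The p-values here therefore cover only the spread between these libraries, whatever its source. In bulk RNA, fewer cells of a type and less RNA per cell cannot be told apart. Of the 8 tested members other than C2CD4A, 3 were higher, 0 were lower and 5 did not pass. At an unadjusted p under 0.05 the edgeR counts were 6 higher and 0 lower, and DESeq2, limma-voom and limma on log2(TPM + 1) also called 0 members lower. The median log2 fold change of these 8 was 0.17, against -0.006 over all genes tested. In 7 of the 8 both BRD9 KO libraries lay above both LacZ control libraries, as they did in 34.1% of all genes, and for NFKBIA both lay below, as they did in 34.5% of all genes.

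**Figure D1:**
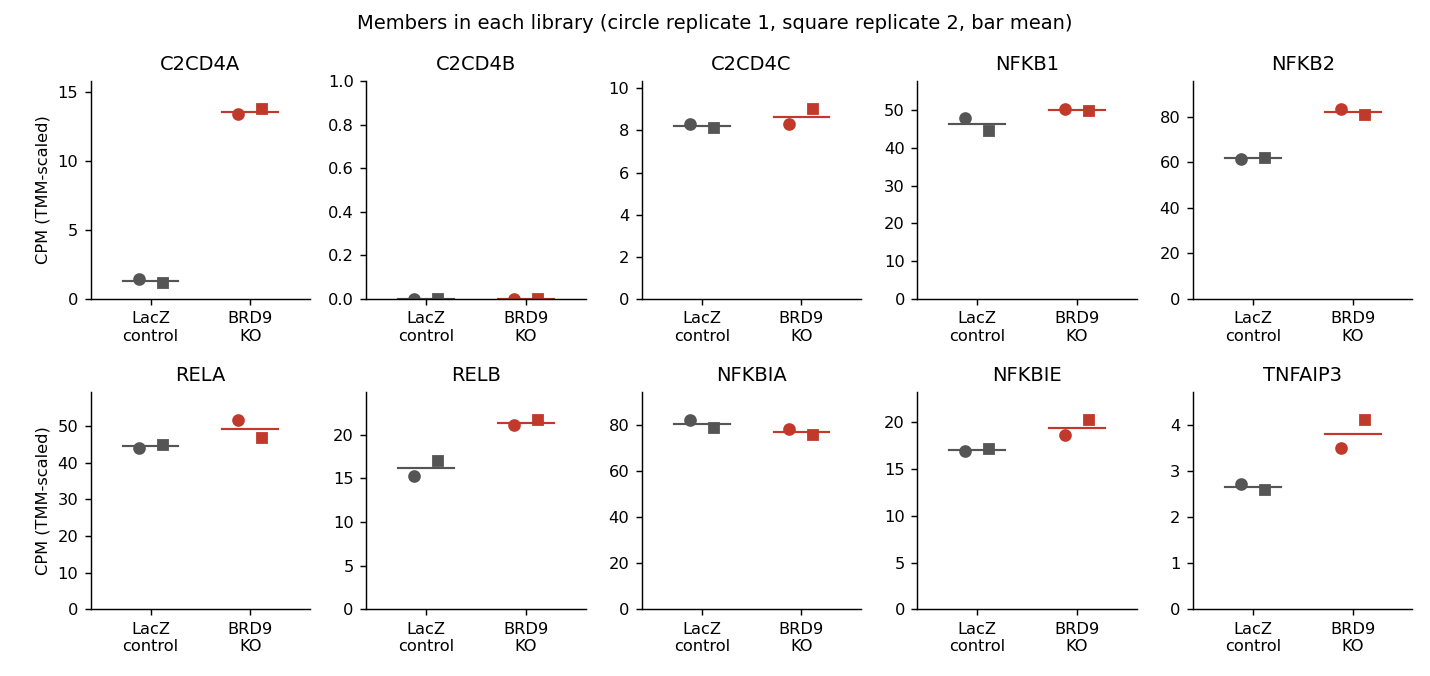
TMM-scaled CPM (y axis, from 0) of the 10 members in each library, with LacZ control in grey and BRD9 KO in red, circles for replicate 1, squares for replicate 2 and bars for the mean of 2 libraries. C2CD4A goes from 1.46 and 1.14 CPM to 13.4 and 13.7 CPM, NFKB2 and RELB are separated by smaller steps, and C2CD4B is at 0 throughout.

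C2CD4A was low in LacZ control cells and about 10.4-fold higher in BRD9 KO cells. Its estimated counts were 22 and 19 in LacZ control replicates 1 and 2 and 261 and 224 in BRD9 KO replicates 1 and 2. In CPM these are 1.46 and 1.14 against 13.4 and 13.7, or 1.3 ± 0.226 against 13.6 ± 0.232 (SD, n = 2 each). The groups stood far apart, and the replicates of each group lay close together. The log2 fold change was 3.38 (SE 0.172), and it placed C2CD4A at rank 6 of the 15288 tested genes from the top. With each library left out in turn the value stayed between 3.21 and 3.57. On the log2(TPM + 1) scale it was 2.23, since adding 1 understates the change of a gene this low. C2CD4A (ENSG00000198535.5) lies on chromosome 15 from 62359176 to 62363116, plus strand, on GRCh37.

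None of the other genes of the family was seen to rise. C2CD4B (ENSG00000205502.3), at 62455734 to 62457484 on the minus strand of the same chromosome, had 0 counts in each of the 4 libraries. C2CD4D likewise had 0 counts in each. At these depths such a count allows up to 0.199 CPM in the shallowest library, for counting error only. C2CD4C (ENSG00000183186.6), the more distant relative at 405445 to 409147 on the minus strand of chromosome 19, was at 8.31 and 9.0 CPM in BRD9 KO and 8.29 and 8.10 CPM in LacZ control. Its log2 fold change was 0.08 (SE 0.125, 95% interval -0.185 to 0.34, edgeR adjusted p = 0.672), so a change of C2CD4C was not detectable at this depth, and the interval leaves room for up to 0.34 on the log2 scale.

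Reads can be shared between near-identical genes, so the sequences of the family were compared. Of the 3371 stretches of 75 bases in the C2CD4A transcript, 35 (1.04%) also occurred in that of C2CD4B and 0 in those of C2CD4C or C2CD4D. With stretches of 25 bases the share was 7.13% for C2CD4B. The posterior standard deviation that RSEM gave for the C2CD4A count was at most 0.0766% of it. Most of the C2CD4A transcript is thus distinct from its relatives at the scale of a read.

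The 4 NF-kB subunit genes among the members all had higher values in both BRD9 KO libraries, as 34.1% of all genes did. Of these 4, 3 passed the test as higher, against 20.5% of all genes. REL, the subunit gene outside the members, was lower, as given below. NFKB2 (ENSG00000077150.13, chromosome 10, 104153867 to 104162281, plus strand), whose product p100 is cut to the subunit p52, was at 83.4 and 80.8 CPM in BRD9 KO and 61.7 and 61.9 CPM in LacZ control. The gap was many times the spread within either group. The log2 fold change was 0.41 (SE 0.039, edgeR adjusted p = 6.41e-08), or 1.33-fold. RELB (ENSG00000104856.9, chromosome 19, 45504719 to 45541450, plus strand), the partner of p52, was at 21.1 and 21.7 CPM in BRD9 KO and 15.3 and 17.0 CPM in LacZ control. For RELB the log2 fold change was 0.40 (SE 0.084, edgeR adjusted p = 0.000728), or 1.32-fold. The transcripts for both partners of the noncanonical dimer thus rose by a similar factor. Both stayed past the threshold under each alternative run, RELB narrowly with limma on log2(TPM + 1) (adjusted p = 0.0494). The cutting of p100 to p52 was not measured.

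The transcripts for the subunits of the canonical dimer moved less. RELA (ENSG00000173039.14, chromosome 11, 65421070 to 65430561, minus strand), which carries the activation domain of that dimer, was at 51.6 and 46.7 CPM in BRD9 KO and 44.1 and 44.9 CPM in LacZ control. BRD9 KO replicate 1 lay above the other 3 libraries. The log2 fold change was 0.15 (SE 0.055, edgeR adjusted p = 0.0396), and the call was lost without BRD9 KO replicate 1 (0.07, adjusted p = 0.456), without LacZ control replicate 1 (adjusted p = 0.173) and without LacZ control replicate 2 (adjusted p = 0.13). It was also lost with DESeq2 (adjusted p = 0.234). NFKB1 (ENSG00000109320.7, chromosome 4, 103422487 to 103538459, plus strand), the source of p50, was at 50.3 and 49.7 CPM in BRD9 KO and 48.0 and 44.6 CPM in LacZ control. NFKB1 had a log2 fold change of 0.12 (SE 0.051, edgeR adjusted p = 0.0863) and did not pass, although it did without LacZ control replicate 1 (0.17, adjusted p = 0.05 after rounding) and with no filter on low counts (0.13, adjusted p = 0.0483).

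None of the 3 inhibitors among the members passed the edgeR test, 0 of 3 at an adjusted p under 0.05. Over all genes 38.6% passed in either direction. NFKBIA (ENSG00000100906.6, chromosome 14, 35870285 to 35873955, minus strand), the classical IkB and a rapid target of NF-kB, was at 78.3 and 75.7 CPM in BRD9 KO and 82.1 and 78.9 CPM in LacZ control. It was the only member whose values were lower in both BRD9 KO libraries. The log2 fold change of NFKBIA was -0.06 (SE 0.039, 95% interval -0.14 to 0.02, edgeR adjusted p = 0.236). NFKBIE (ENSG00000146232.10, chromosome 6, 44225903 to 44233525, minus strand), another IkB protein, was at 18.6 and 20.2 CPM in BRD9 KO and 16.9 and 17.2 CPM in LacZ control, with a log2 fold change of 0.18 (SE 0.084, edgeR adjusted p = 0.0907). TNFAIP3 (ENSG00000118503.10, chromosome 6, 138188351 to 138204451, plus strand) encodes A20, a ubiquitin-editing enzyme that shuts the pathway off. It was at 3.49 and 4.10 CPM in BRD9 KO and 2.72 and 2.58 CPM in LacZ control.

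TNFAIP3 rested on few reads, with 68 and 67 counts in BRD9 KO and 41 and 43 in LacZ control. Its log2 fold change, 0.51, was larger than those of NFKB2 and RELB, but its SE of 0.214 was also larger and it did not pass (edgeR adjusted p = 0.0663, 95% interval 0.06 to 0.96). It passed with the stricter filter of at least 1 CPM in each library, with fewer genes tested (adjusted p = 0.0473). At an unadjusted p under 0.05, NFKB1, NFKBIE and TNFAIP3 joined NFKB2, RELA and RELB, and C2CD4C and NFKBIA did not.

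Per length, in transcripts-per-million (TPM), NFKBIA was the most abundant member in both groups. In LacZ control its mean level was 94.6 ± 3.33 TPM (SD, n = 2), followed by NFKB2 at 40.5, RELA at 33.5, NFKB1 at 20.4, NFKBIE at 16.1 and RELB at 13.4 TPM. C2CD4C was at 4.47, TNFAIP3 at 1.25 and C2CD4A at 0.635 ± 0.106 TPM, the lowest of the members with any counts. In BRD9 KO, C2CD4A reached 6.67 ± 0.113 TPM and stood above C2CD4C at 4.75 and TNFAIP3 at 2.46 TPM. The order of the other members was the same in both groups. The ranges of neighbours in this order did not overlap in either group, with only 2 libraries behind each range, and the order was not tested.

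**Figure D2:**
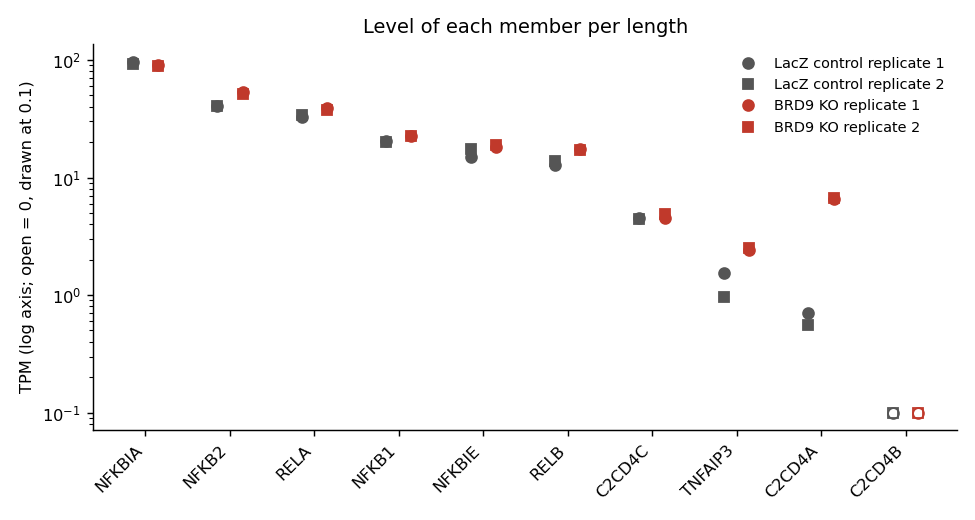
TPM (log y axis) of each member in each library, ordered by the LacZ control mean, with LacZ control in grey, BRD9 KO in red, circles for replicate 1, squares for replicate 2 and open symbols at 0.1 for a value of 0. C2CD4A passes C2CD4C and TNFAIP3 in BRD9 KO, and the other members keep their places.

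The files also give a mean transcript length per gene, weighted by the estimated abundance of each transcript. The C2CD4 genes have 1 transcript model each, so that this length cannot change. It was 2469 and 2798 bases for TNFAIP3 in BRD9 KO and 2991 and 4432 bases in LacZ control, shorter in both BRD9 KO libraries. The log2 ratio was -0.49, and 1.36% of tested genes had one at least as large in size. Because TNFAIP3 had at most 68 counts in a library, and the LacZ control libraries differed from each other by more than the groups did at their nearest, this value is imprecise. NFKB2 and NFKBIA had slightly longer means in both BRD9 KO libraries (log2 ratios of 0.04 and 0.02), while the ranges of NFKB1, RELA, RELB and NFKBIE overlapped between groups.

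**Figure D3:**
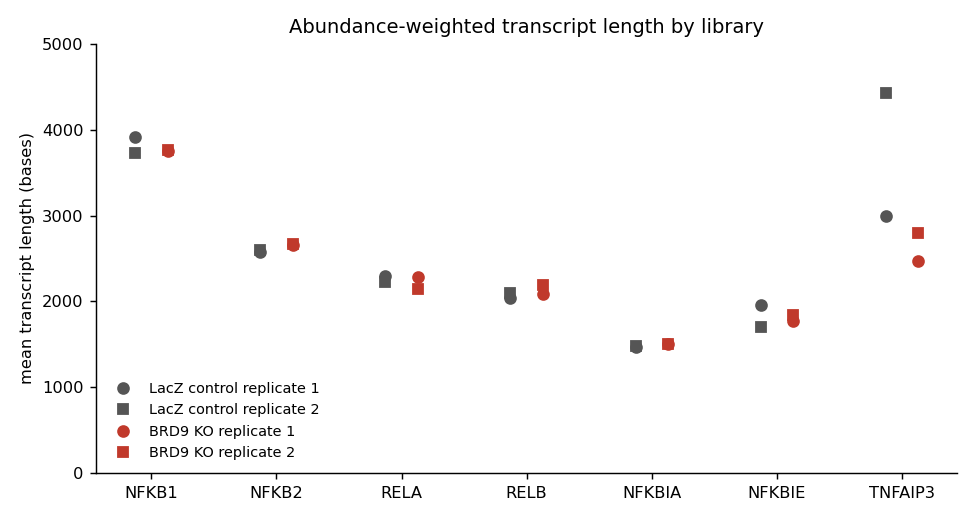
Abundance-weighted mean transcript length in bases (y axis, from 0) of the 7 NF-kB members in each library, with LacZ control in grey, BRD9 KO in red, circles for replicate 1 and squares for replicate 2. TNFAIP3 runs from 2469 to 4432 bases and the other genes change little.

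The 5 remaining subunit and IkB genes moved in both directions. REL, which encodes the subunit c-Rel, fell from 23.6 and 23.8 CPM in LacZ control to 15.5 and 19.2 CPM in BRD9 KO. This gave a log2 fold change of -0.46 (SE 0.091, edgeR adjusted p = 0.000435), and the call was lost on the log2(TPM + 1) scale (adjusted p = 0.146). Its exons overlap those of a clone-named gene on the same strand, RP11-373L24.1, which was at 6.82 and 4.16 CPM in BRD9 KO and 9.22 and 7.44 CPM in LacZ control.

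BCL3, an atypical IkB protein that binds p50 and p52 in the nucleus, was at 12.6 and 12.4 CPM in BRD9 KO and 15.8 and 15.6 CPM in LacZ control. Its log2 fold change was -0.33 (SE 0.094, edgeR adjusted p = 0.00893). The call was lost with DESeq2 (adjusted p = 0.13), without LacZ control replicate 1 (adjusted p = 0.0611) and without LacZ control replicate 2 (adjusted p = 0.0506). NFKBIB, the IkB protein most like NFKBIA in how it holds NF-kB in the cytoplasm, was at 36.8 and 36.4 CPM in BRD9 KO and 30.9 and 31.5 CPM in LacZ control. NFKBIB had a log2 fold change of 0.23 (SE 0.059, edgeR adjusted p = 0.00422), and it was lost with DESeq2 (adjusted p = 0.0731). Its exons overlap those of SIRT2 on the other strand, which the library kit does not tell apart.

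NFKBIZ and NFKBID, further nuclear IkB proteins, did not pass. NFKBIZ was at 4.16 and 4.04 CPM in BRD9 KO and 5.24 and 5.64 CPM in LacZ control (log2 fold change -0.41, edgeR adjusted p = 0.064, and 0.0487 with the stricter filter), and NFKBID differed by -0.19 in log2 units (edgeR adjusted p = 0.314). In all, 1 of the 5 was higher and 2 were lower, with a median of -0.33, against shares of 20.5% higher and 18.1% lower and a median of -0.006 over all genes tested.

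Upstream of NF-kB, MAP3K14, TBK1, TBKBP1 and IKBKE were higher in BRD9 KO, and no other tested gene of the IKK complexes and upstream kinases passed. Of these 13 tested genes 4 rose, 0 fell and 9 did not pass, against shares of 20.5% higher and 18.1% lower over all genes. The median was 0.01, and -0.005 without BRD9 KO replicate 1, against -0.006 over all genes. At an unadjusted p under 0.05, edgeR had 1 of them lower, and DESeq2 and limma-voom called 0 lower. MAP3K14, which encodes NIK, was at 81.2 and 83.2 CPM in BRD9 KO and 53.8 and 55.1 CPM in LacZ control, with a log2 fold change of 0.59 (SE 0.04 and edgeR adjusted p = 4.9e-10). An antisense gene, MAP3K14-AS1, overlaps its exons and was at most 3.90 CPM in any library.

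TBK1, a kinase related to the IKKs, rose by 0.34 in log2 units (edgeR adjusted p = 7.88e-06), and its adaptor TBKBP1 by 0.50 (edgeR adjusted p = 1.05e-06). IKBKE, the IKK-related partner of TBK1, rose by 0.51 (edgeR adjusted p = 0.000178), from 14.2 and 12.5 CPM to 19.5 and 18.4 CPM. The calls of TBK1 and IKBKE were lost on the log2(TPM + 1) scale. For CHUK, which also acts with NIK, and IKBKB and IKBKG, together the classical IKK complex, singled out after their values were seen, the log2 fold changes were 0.05, 0.002 and 0.003, and the last 2 changed sign under other settings. TANK and AZI2, further adaptors of TBK1 also singled out afterwards, were at 0.10 (edgeR adjusted p = 0.106) and -0.09 (edgeR adjusted p = 0.212). IKBKG shares sequence with a pseudogene copy, so its counts are uncertain.

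Among receptors and adaptors, 27 of 38 listed genes were tested, of which 9 rose, 0 fell and 18 did not pass, against 20.5% higher and 18.1% lower over all genes. The median log2 fold change was 0.1, against -0.006. At an unadjusted p under 0.05, edgeR had 2 of them lower, and with DESeq2 0 were called lower. In edgeR, 1 gene was called lower with either other filter on low counts, and also when BRD9 KO replicate 1 was left out, or LacZ control replicate 1. TRAF3, an adaptor that holds NIK in check, rose from 73.6 and 77.8 CPM to 92.4 and 93.3 CPM, or 0.29 in log2 units (edgeR adjusted p = 4.51e-06). CARD10, a scaffold between receptors and IKK, rose by 0.49 (edgeR adjusted p = 7.9e-06). IRAK1, the kinase of the interleukin-1 and Toll-like receptors, rose by 0.19 (edgeR adjusted p = 1.64e-05). TNFRSF12A, the receptor for TWEAK, rose by 0.28 (edgeR adjusted p = 2.33e-05), and RIPK1, the kinase at the TNF receptor, by 0.34 (edgeR adjusted p = 0.000228). Each of these calls but that of TNFRSF12A was lost on the log2(TPM + 1) scale.

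The widest difference in that list, chosen after its values were seen, was in TNFRSF11A, the receptor RANK, which signals to NIK. It was at 2.41 and 2.14 CPM in BRD9 KO and 1.19 and 0.9 CPM in LacZ control (log2 fold change 1.13, SE 0.318, edgeR adjusted p = 0.0083). This call rested on 15 to 47 counts and was lost with DESeq2 and without either BRD9 KO replicate 1 or LacZ control replicate 2. The receptors IL1R1, TLR2, TLR4 and TLR5 had 0 counts in each library.

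Of 15 tested negative regulators, 5 rose, 0 fell and 10 did not pass, with a median of 0.10, against 20.5% higher, 18.1% lower and a median of -0.006 over all genes. No further one fell at an unadjusted p under 0.05 by edgeR, and DESeq2 and limma-voom also called 0 lower. TOLLIP, an inhibitor of IRAK1, rose from 39.7 and 39.1 CPM to 54.2 and 52.2 CPM, or 0.44 in log2 units (edgeR adjusted p = 1.02e-06), and was lost on the log2(TPM + 1) scale. TNIP1 and TAX1BP1, partners of A20, rose by 0.21 (edgeR adjusted p = 0.000293) and 0.14 (edgeR adjusted p = 0.000312). N4BP1 rose by 0.20 (edgeR adjusted p = 0.00635) and TNIP2, another partner of A20, by 0.20 (edgeR adjusted p = 0.0284). The calls of N4BP1 and TNIP2 were lost with DESeq2, on the log2(TPM + 1) scale and without LacZ control replicate 1. That of TNIP2 was also lost with either BRD9 KO replicate left out.

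The cytokines that start the pathway were at 0 or a few counts. None of 13 listed inflammatory ligands reached the filter, so edgeR tested 0 of them. TNF had 3 and 0 counts in BRD9 KO and 5 and 4 in LacZ control, and IL1B had 4 and 2 against 3 and 2. TNFSF13B, which encodes the B-cell factor BAFF, had the most counts of the 13 and was at 0.256 and 0.306 CPM in BRD9 KO and 0.663 and 0.6 CPM in LacZ control. IL18, IL36G, CD40LG and TNFSF14 had 0 counts in each library, and 8 of the 13 had at most 3 counts in any library.

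**Figure D4:**
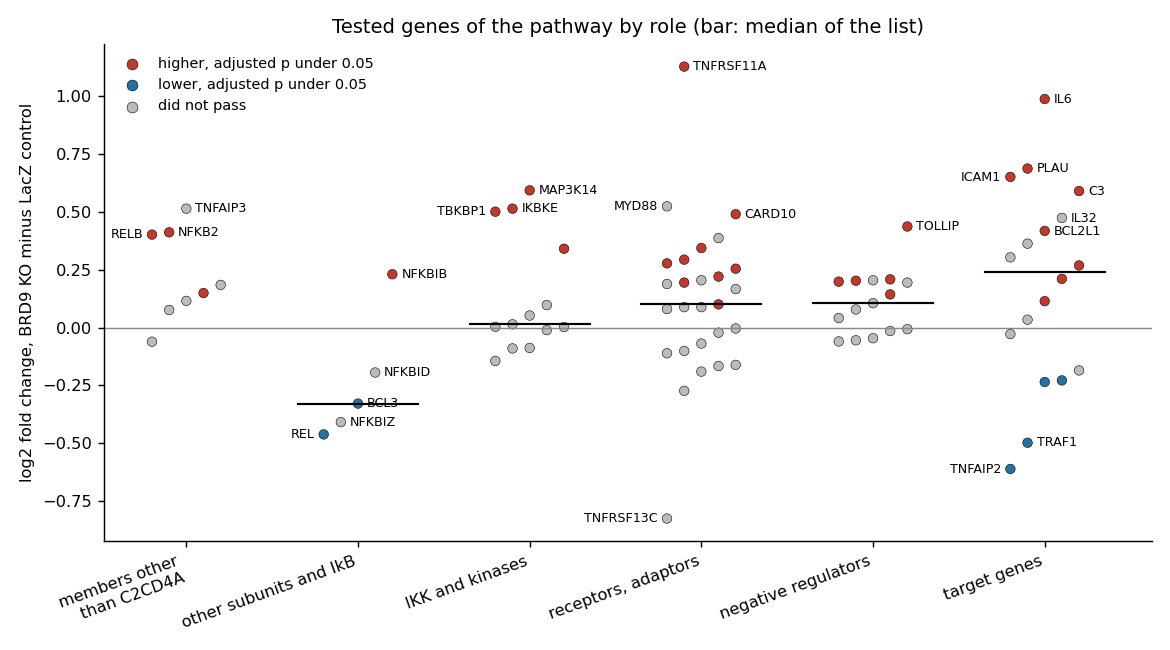
Log2 fold change, BRD9 KO minus LacZ control (y axis), of each tested gene in 6 groups of the pathway, in red where higher and blue where lower at an edgeR adjusted p under 0.05 and grey where the test was not passed, with a bar at the median of each list but the members. C2CD4A, at 3.38, is left out, the other subunits and IkB genes have a median of -0.33 and the target genes spread from -0.61 to 0.99.

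Known target genes moved in both directions. Of 40 listed target genes 18 were tested, of which 8 rose, 4 fell and 6 did not pass, with a median of 0.24, against 20.5% higher, 18.1% lower and a median of -0.006 over all genes tested. PLAU, which encodes the protease urokinase, rose from 496 and 492 CPM to 788 and 801 CPM, a log2 fold change of 0.69 (SE 0.014, edgeR adjusted p = 4.15e-18). ICAM1, an adhesion molecule, rose from 63.1 and 62.0 CPM to 96.7 and 99.8 CPM, a log2 fold change of 0.65 (SE 0.038, edgeR adjusted p = 6.19e-11). BCL2L1, the survival gene for BCL-xL, rose by 0.42 (edgeR adjusted p = 5.65e-08), and LIF, a cytokine of the interleukin-6 family, by 0.27 (edgeR adjusted p = 1.83e-05). The call of LIF was lost on the log2(TPM + 1) scale. With DESeq2, 6 of the 18 tested target genes were called higher and 1 lower, and on log2(TPM + 1) 4 were called higher and 1 lower.

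CSF1, the growth factor of macrophages, fell from 159 and 154 CPM to 132 and 134 CPM, a log2 fold change of -0.23 (SE 0.029, edgeR adjusted p = 2.63e-06). TNFAIP2, TRAF1 and GADD45B, named after their values were seen, were the other genes that fell, with log2 fold changes of -0.61, -0.50 and -0.23. None of those 3 was called by DESeq2. IL6, also named after its values were seen, encodes a cytokine and was at 9.13 and 9.06 CPM in BRD9 KO and 3.98 and 5.16 CPM in LacZ control (log2 fold change 0.99, SE 0.153, edgeR adjusted p = 3.48e-05). Its exons overlap those of STEAP1B on the other strand, which was at 13.4 and 13.04 CPM in BRD9 KO and 13.5 and 13.1 CPM in LacZ control. Of the 40 listed target genes 13 had 0 counts in each library, among them the chemokines CXCL8, CXCL2 and CCL20 and the adhesion molecules VCAM1 and SELE, whereas the adhesion molecule ICAM1 was abundant, as given above.

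Most gene models around C2CD4A had no counts. Of 22 further gene models that start within 500 kb of it, 17 had 0 counts in each library and 2 were tested. By annotation the protein-coding ones among the 22 are VPS13C, C2CD4B and TLN2, and the rest are noncoding RNAs or pseudogenes. VPS13C, a lipid transfer protein gene that starts beside C2CD4A and runs the other way, rose from 160 and 156 CPM to 238 and 240 CPM. This is a log2 fold change of 0.60 (SE 0.025, edgeR adjusted p = 3.46e-13). TLN2, which encodes the adhesion protein talin-2, rose from 178 and 187 CPM to 216 and 223 CPM, a log2 fold change of 0.27 (SE 0.028, edgeR adjusted p = 2.72e-07), and was lost on the log2(TPM + 1) scale. Both neighbours were higher in both BRD9 KO libraries, as were 34.1% of all genes, and both were called higher, as were 20.5%. They rose by far smaller factors than C2CD4A and from far higher levels.

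**Figure D5:**
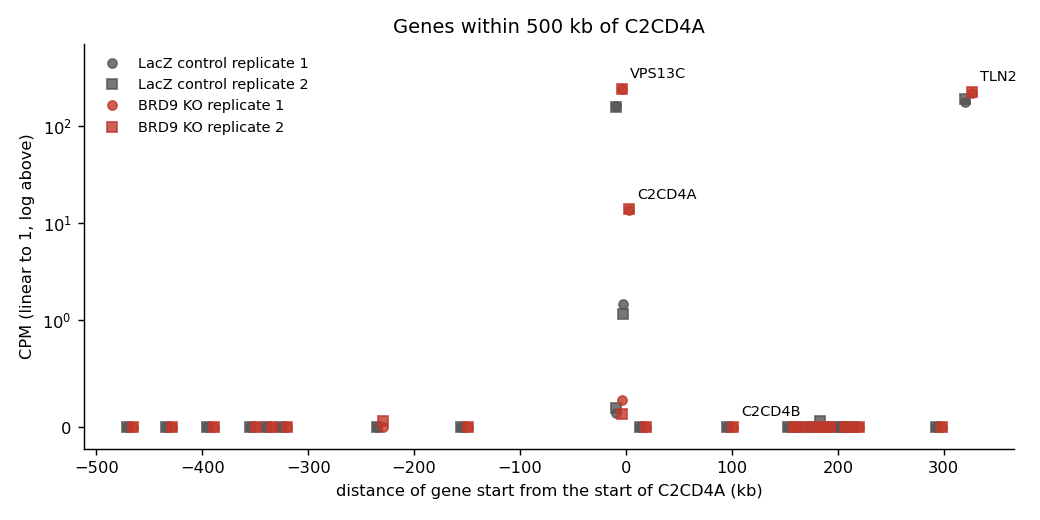
CPM (y axis, linear to 1 and log above) of each gene model that starts within 500 kb of C2CD4A, against the distance of its start in kb (x axis), with LacZ control in grey, BRD9 KO in red, circles for replicate 1 and squares for replicate 2. VPS13C and TLN2 are abundant and higher in BRD9 KO, C2CD4A lies at 1.14 to 13.7 CPM, and C2CD4B is at 0.

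The genes whose values were most like those of C2CD4A over the 4 libraries were found by the root mean square distance of log2 CPM, each gene centred on its LacZ control mean. The nearest was BCAN, which encodes the matrix proteoglycan brevican, at a distance of 0.853. BCAN was at 14.7 and 14.8 CPM in BRD9 KO and 4.11 and 2.82 CPM in LacZ control. Next came RP11-21J18.1 (0.939), ENDOD1 (0.969), RP11-504P24.4 (1.02) and POLR2J2 (1.04). For RP11-21J18.1, RP11-504P24.4 and POLR2J2 the posterior standard deviation of a count exceeded the count itself, so that their values are uncertain. Over these 5 genes the log2 fold change ran from 1.92 to 3.02, against 3.38 for C2CD4A.

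Markers of other cells in which C2CD4A and NF-kB genes are studied were checked. Of 14 haematopoietic markers, PTPRC, CD3E, CD3D, MS4A1 and SPI1 had 0 counts in each library and 7 had at most 3. Their summed level was between 186 and 196 TPM in LacZ control and 233 TPM in both BRD9 KO libraries. Most of it came from CD68, a lysosomal protein gene, at 194 and 191 CPM in BRD9 KO and 156 and 164 CPM in LacZ control. CORO1A had 333 to 414 counts, and CSF1R, the CSF1 receptor, had 66 and 66 counts in BRD9 KO and 42 and 35 in LacZ control (log2 fold change 0.60, edgeR adjusted p = 0.0434, lost with DESeq2). Of 10 endothelial markers 9 matched, and CDH5, KDR, TEK and ROBO4 had 0 counts in each library, while VWF had 39.9 to 51.9. The summed level of the 9, mostly EGFL7, was between 40.3 and 40.4 TPM in LacZ control and between 32.2 and 33.4 TPM in BRD9 KO. Of 10 islet markers, INS, GCG, SST, PDX1, NKX6-1, SLC30A8 and ABCC8 had 0 counts in each library, and the sum was at most 0.79 TPM. The part of these markers in the results was not tested.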

How the data were processed

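RNA-seq of 4 G401 libraries was used. Reads had been mapped to hg19 by STAR, and gene levels estimated by RSEM. The deposited expected count (estimated count) splits reads that match several genes, and the authors' TPM is scaled by length within a library. The deposited length (the mean transcript length of a gene) and posterior standard deviation (a score of counting uncertainty) were also read. The library kit named does not mark strand. The labels name a Direct-zol extraction, the methods Trizol with column cleanup. No versions are named.

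Expected counts were rounded and tested with edgeR 4.0.16 in R 4.3.3: TMM scaling, filterByExpr, quasi-likelihood test with robust dispersion and no covariate, two-sided, Benjamini-Hochberg adjustment over 15288 genes. Standard errors follow from the F statistic, and 95% intervals are unadjusted. Alternatives were DESeq2 1.42.0, limma 3.58.1 (voom, or log2(TPM + 1)), other scalings and filters, a replicate block, each library left out, and an adjusted p under 0.01. The tests were tried on simulated data.

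Coordinates come from GENCODE v44 on GRCh37, overlaps from bedtools 2.31.1 and promoters from RefSeq. Of 176 listed genes 175 matched. Members and lists were chosen with earlier results of these data known. Named were all members, the other subunits and IkB genes, up to 5 changed genes per list by smallest p, markers at 0 or most abundant, tested neighbours within 500 kb and the 5 genes most like C2CD4A. Replicates differed by more than sampling noise (chi-square per degree of freedom 1.59 and 1.62) and were kept apart.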

Additional observations from a re-analysis of the deposited data

How the results depend on the processing

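Of the 10 members, 3 to 5 were called under the alternatives that kept all 4 libraries, against 4. These counts include C2CD4A, which was chosen for its rise, so its call is not a test. Without C2CD4A, 3 of 8 tested members were called by edgeR, against 38.6% of all genes. Genes called fell from 5901 to 3303 with DESeq2 and 2444 on log2(TPM + 1), and ran from 4195 to 4960 with a library left out. With DESeq2 and on log2(TPM + 1), the calls went from 3 to 1 and 0 among the other subunits and IkB genes, from 9 to 5 and 2 among receptors and adaptors, from 5 to 3 and 3 among negative regulators, and from 12 to 7 and 5 among target genes. Among the kinases log2(TPM + 1) called 2 of the 4. With a library left out, receptors and adaptors had 5 to 8 calls, the 5 without LacZ control replicate 2, and negative regulators 3 to 5, the 3 without LacZ control replicate 1. The cause was not tested. The sign differed from that reported under at least 1 alternative for 18 of the pathway genes, none of them a member or a gene called in the report, and the median of the kinases was -0.005 without BRD9 KO replicate 1. Replicate numbers did not pair the samples (correlation of deviations -0.0535 across genes), and with the replicate block 6109 genes and 4 members were called. For single genes, 950 values stayed the same, 74 values of 24 genes lost the threshold and 10 values of 6 genes gained it. The 950 include values of C2CD4A, which has no p here and was compared by its log2 fold change. The 1 value that moved was that of C2CD4A on log2(TPM + 1), 2.23. With 2 libraries a group and 15053247 to 19559290 counts each, low genes such as TNFAIP3 are limited by counting.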
